A study of Mus musculus with 12 samples.

Results

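Bile acid synthesis and transport was described across mouse liver RNA-seq through 33 genes, of 28036 in the gene count table, chosen by symbol: 7 enzymes of sterol ring modification and hydroxylation, 3 of side chain oxidation, 2 of conjugation, 5 uptake carriers, 7 canalicular export genes, 4 basolateral export genes and 5 regulators. All 33 were found in the table and 32 passed the filter on low counts. The exception was Slc51a. The study measured poly(A) RNA in livers of 12 C57BL/6J mice in 4 groups of 3. The EE group carried a high-fat diet model of metabolic dysfunction-associated steatohepatitis (MASH) and received Eleutheroside E, a lignan glycoside of Eleutherococcus, by mouth at 100 mg/kg. The resmetirom group carried the same model and was dosed by mouth with resmetirom at 3 mg/kg, an agonist selective for the beta form of the thyroid hormone receptor. The MASH group carried the model and received vehicle, 0.5% CMC-Na (sodium carboxymethyl cellulose), and the normal control group received vehicle without the model. The model was set up over 8 weeks and dosing lasted 4 weeks. The age and sex of the mice, the makeup of the diets and the vehicle of the drugs were not stated in the labels. Each drug was given at 1 dose, to diet-model mice only.

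Hepatocytes make bile acids from cholesterol. Cyp7a1 starts the classical route and Cyp27a1 the alternative one, further enzymes rearrange the sterol ring and shorten the side chain, and the product is joined to taurine or glycine. Bile acids are pumped across the canalicular membrane into bile, reabsorbed in the intestine and taken up again from portal blood, while basolateral exporters return some of them to the circulation. The bile acid receptor FXR (Nr1h4) limits synthesis in liver through SHP (Nr0b2) and, from the intestine, through Fgf15 acting on Fgfr4 and its co-receptor Klb.

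Library totals lay between 17297864 and 21793311 counts. Values are TMM-scaled CPM (counts per 1000000 counts of the effective library size), unless named otherwise, and all livers are listed in the order of their replicate numbers. The TMM factors ran from 0.508 in control 1 to 1.41 in resmetirom 1. Statements on the order or overlap of livers refer to the scaled values. In 1 control liver (control 1), 35.4% of the counts came from mitochondrially encoded genes, against 2.40% to 4.38% in the other 11 livers. In 1 resmetirom liver (resmetirom 2), 35.7% came from the major urinary protein genes, against 3.33% to 15.99% elsewhere. The 8 hepatocyte markers were detected in all 12 livers, with a summed level of 72478 to 163623 CPM. The cholangiocyte keratins Krt19 and Krt7 stayed at or below 3.01 and 1.61 CPM. The labels do not say which mice shared a cage or a day, so p-values measure the spread between these livers.

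Per kilobase of exon, which allows levels to be compared between genes, the members spanned 1046 CPM per kb for Scp2 to 0.00593 CPM per kb for Slc51a (mean of the 4 group means). Scp2, which encodes a peroxisomal thiolase that shortens the side chain, was followed by the bile acyl-CoA synthetase Slc27a5 at 340 CPM per kb, the ring dehydrogenase Hsd3b7 at 223, the sterol hydroxylase Cyp27a1 at 215 and the sodium-dependent uptake carrier Slc10a1 at 205 CPM per kb. Cyp7a1, the rate-limiting enzyme, ranked 23 of 33 at 18.5 CPM per kb. The lowest 4 were Slc51b at 1.68, Abcb1a at 0.553, Abcc4 at 0.361 and Slc51a at 0.00593 CPM per kb.

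**Figure D1:**
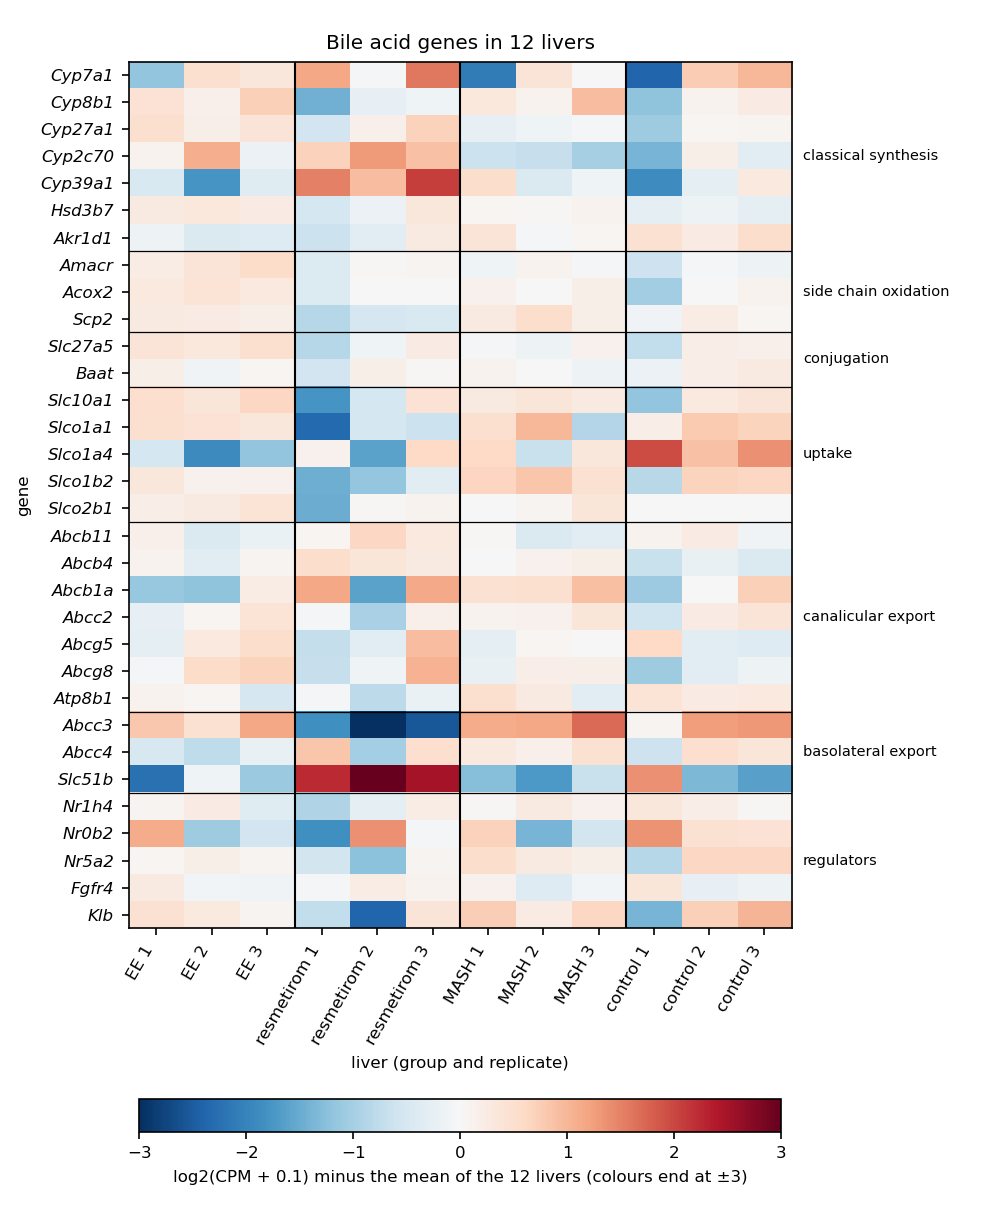
Level of the 32 tested members in each of the 12 livers, as log2 CPM minus the gene's mean over the 12 livers. Columns run from EE through resmetirom and MASH to control and rows follow the members' roles; the low Abcc3 and high Slc51b values of the 3 resmetirom livers stand out, as do the low values of many members in control 1.

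Resmetirom livers were compared with MASH livers to see which of these genes differed under the receptor agonist. Abcc3, a basolateral exporter of bile acid and glucuronide conjugates, was the member that changed. It had 31.8, 4.50 and 19.4 CPM in the resmetirom livers, against 246, 254 and 367 CPM in the MASH livers. Every resmetirom liver lay below every other liver of the study, the lowest of which was control 1. The means were 18.6 ± 13.7 CPM in resmetirom livers and 289 ± 67.8 CPM in MASH livers (SD, n = 3 each), a 15.5-fold lower level (log2 fold change -3.95 ± 0.60 SE; edgeR quasi-likelihood test, adjusted p = 0.0155). In bulk tissue, fewer cells of a type and less RNA per cell cannot be told apart. Of the 32 tested members 1 was called, at an adjusted p below 0.05 over all 13988 tested genes, where 0.665% of all genes were called. The Abcc3 call was lost when MASH 1, MASH 2 or MASH 3 was left out (adjusted p = 0.0594, 0.0687 and 0.0776 in edgeR, log2 fold changes -4.06, -4.04 and -3.75). It was also lost without scaling factors (edgeR adjusted p = 0.105) and with only the 2 groups in the fit (0.119), and the log2 fold change stayed between -4.58 and -3.49 in all alternatives.

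The next members by p-value did not pass the threshold in the fit of all livers. Slc51b, the beta subunit of the organic solute transporter of the basolateral membrane, had 2.12, 7.57 and 2.56 CPM in resmetirom livers (55, 101 and 50 counts), against 0.0946, 0.0418 and 0.195 CPM in MASH livers (2, 1 and 5 counts). It passed the filter on low counts only through the resmetirom livers, where it is high, so a difference was built into its being tested, and its p-values support nothing by themselves. All resmetirom livers were above all MASH livers, with a log2 fold change of 5.10 ± 1.11 (edgeR adjusted p = 0.0630). Its partner subunit Slc51a had 2 counts in EE 1, 2 counts in MASH 2 and 0 counts in the other 10 livers, where a count of 0 allows up to 3 counts. Cyp2c70, the mouse enzyme that makes muricholic acids, had 465, 696 and 531 CPM in resmetirom livers, against 184, 177 and 143 CPM in MASH livers, and the groups did not overlap. Its log2 fold change was 1.74 ± 0.41 (edgeR adjusted p = 0.0803). Slco1b2, a sodium-independent organic anion uptake carrier, had 174, 213 and 378 CPM in resmetirom livers, against 751, 861 and 654 CPM in MASH livers. These ranges were also apart, at a log2 fold change of -1.57 ± 0.39 (edgeR adjusted p = 0.0946). Scp2 had 1477, 1887 and 1939 CPM in resmetirom livers, against 3246, 3884 and 3024 CPM in MASH livers, with no overlap and a log2 fold change of -0.94 ± 0.24 (edgeR adjusted p = 0.105). With control 1 left out, a liver of neither group, 5 of 32 members were called, where 3.01% of all genes were called: Abcc3 and these 4 genes (edgeR adjusted p = 0.0145 for Slc51b, 0.0229 for Cyp2c70, 0.0180 for Slco1b2 and 0.0364 for Scp2), and the log2 fold changes were 5.08, 1.74, -1.57 and -0.95.

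**Figure D2:**
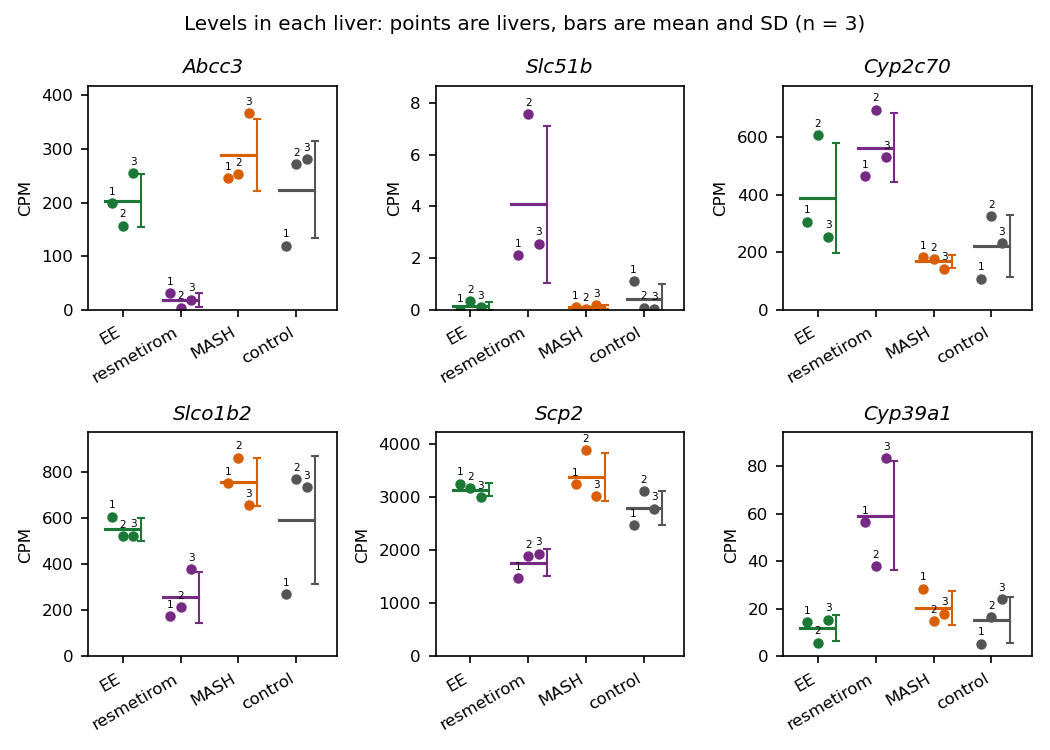
CPM of Abcc3, Slc51b, Cyp2c70, Slco1b2, Scp2 and Cyp39a1 in each liver (points), with the group mean and SD, for EE, resmetirom, MASH and control. Resmetirom livers lie below MASH livers for Abcc3, Slco1b2 and Scp2 and above them for Slc51b, Cyp2c70 and Cyp39a1; of these 6 the difference passed the threshold for Abcc3.

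Over the 32 tested members, 13 had a positive and 19 a negative log2 fold change of resmetirom against MASH, with a median of -0.15, against 0.06 over all tested genes. The ranges of the 2 groups did not overlap for 5 members that were higher in resmetirom livers (Slc51b, Cyp2c70, Cyp39a1, Abcb11 and Abcb4; 11.6% of all tested genes) and 5 that were lower (Abcc3, Slco1b2, Scp2, Cyp8b1 and Nr5a2; 12.3% of all tested genes). Without control 1 and resmetirom 2, the members called were 5 of 32 (15.6%), Abcc3, Slco1b2 and Scp2 lower and Slc51b and Cyp2c70 higher, where 3.29% of all genes were called. Slc51b is in this count and among the higher members without overlap. It passed the filter only through the resmetirom livers, where it is high, so its place in both supports nothing. The 10 pericentral markers summed to 1811, 7933 and 7541 CPM in resmetirom livers, against 9056, 10677 and 12232 CPM in MASH livers. Cyp2e1 was the largest part of each sum, at 956, 4898 and 4975 CPM against 6550, 7303 and 8054 CPM. Of the 10 markers, 3 had a positive and 7 a negative log2 fold change. Gulo had 361, 921 and 736 CPM in resmetirom livers, against 370, 501 and 527 CPM in MASH livers. The 8 Kupffer cell markers summed to 773, 304 and 368 CPM in resmetirom livers, against 304, 299.7 and 375 CPM in MASH livers, and the 7 stellate cell markers to 576, 131 and 183 CPM, against 251, 224 and 248 CPM. The 10 cholangiocyte markers summed to 77.3 to 105 CPM in resmetirom livers and 60.3 to 118 CPM in MASH livers. All 10 pericentral markers were detected in each of these livers. Resmetirom 1 had the lowest pericentral sum and the highest Kupffer and stellate sums of the study. The part of these markers in the members' levels was not tested.

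The sequences upstream of the start site are shown for the 4 members that followed Abcc3 by p-value, a choice made after the values were seen. Each holds the nuclear receptor half-site AGGTCA, the element whose repeats thyroid hormone receptor and FXR bind with RXR. The windows are the 250 bases before the RefSeq start on GRCm38.p6, 5′ to 3′ on the gene's strand, with the half-site or its reverse complement TGACCT in capitals. They lie at chr9:65422774-65423023 (minus strand) for Slc51b, chr19:40187287-40187536 (minus strand) for Cyp2c70, chr6:141629268-141629517 (plus strand) for Slco1b2 and chr4:108118548-108118797 (minus strand) for Scp2.
Slc51b: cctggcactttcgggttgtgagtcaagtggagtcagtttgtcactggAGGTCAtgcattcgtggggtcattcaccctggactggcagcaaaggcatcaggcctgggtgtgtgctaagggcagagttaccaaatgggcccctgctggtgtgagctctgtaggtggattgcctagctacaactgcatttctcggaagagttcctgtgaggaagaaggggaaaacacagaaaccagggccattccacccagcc
Cyp2c70: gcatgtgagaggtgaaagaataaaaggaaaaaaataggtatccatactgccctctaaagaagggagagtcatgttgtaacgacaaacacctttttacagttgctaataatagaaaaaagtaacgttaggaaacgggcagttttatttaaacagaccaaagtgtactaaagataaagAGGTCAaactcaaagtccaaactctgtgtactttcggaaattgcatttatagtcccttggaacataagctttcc
Slco1b2: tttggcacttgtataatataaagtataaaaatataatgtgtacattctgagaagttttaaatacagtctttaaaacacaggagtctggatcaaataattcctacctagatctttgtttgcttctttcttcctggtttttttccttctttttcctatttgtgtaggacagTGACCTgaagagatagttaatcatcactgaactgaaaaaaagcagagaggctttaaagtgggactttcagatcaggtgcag
Scp2: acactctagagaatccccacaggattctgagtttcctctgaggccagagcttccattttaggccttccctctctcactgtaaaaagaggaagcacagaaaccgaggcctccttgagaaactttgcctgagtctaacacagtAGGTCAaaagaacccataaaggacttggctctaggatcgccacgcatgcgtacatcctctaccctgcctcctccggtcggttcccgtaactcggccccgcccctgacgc
The match begins 203 bases before the start site in Slc51b, 74 in Cyp2c70, 81 in Slco1b2, where it is the complement, and 109 in Scp2. RefSeq windows of the full length (250 bases before to 50 after the start) were matched for 26 of the 33 members, and Abcc3 and Cyp7a1 are not among the 26. Motifs were searched only in the 250 bases before the start. On either strand, AGGTCA was in 12 of their 33 windows (36.4%), against 14.02% of all 32851 windows. The half-site was in the windows of Abcb11, Abcc2, Akr1d1, Nr1h4, Nr5a2, Slc10a1, Slc51a and Slco1a1 as well. The longer motifs AGGTCANTGACCT (0.00609% of all windows), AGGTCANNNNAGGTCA (0.0152%) and CAAGGTCA (1.33%), which all contain the half-site, were in no member window. A match describes letters and not a bound site.

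Resmetirom livers were also compared with control livers, which had neither the model nor the drug. Abcc3 had 31.8, 4.50 and 19.4 CPM in resmetirom livers, against 119.6, 272 and 281 CPM in control livers, a 12.0-fold lower level without overlap (log2 fold change -3.59 ± 0.59; edgeR adjusted p = 0.0139). This was 1 of 32 members called, where 3.16% of all genes were called. Abcb4, the floppase that delivers phosphatidylcholine to bile, had 382, 339 and 317 CPM in resmetirom livers, against 167, 225 and 196 CPM in control livers. The groups were apart, with a log2 fold change of 0.82 ± 0.20 (edgeR adjusted p = 0.0513). Cyp39a1, which hydroxylates 24-hydroxycholesterol, had 56.5, 37.9 and 83.2 CPM in resmetirom livers, against 5.33, 16.4 and 24.2 CPM in control livers (log2 fold change 1.94 ± 0.52; edgeR adjusted p = 0.0631). Cyp39a1 in EE livers, at 14.4, 5.72 and 15.5 CPM, and in MASH livers, at 28.4, 14.8 and 18.001 CPM, stayed below every resmetirom liver too. Slc51b had 2.12, 7.57 and 2.56 CPM in resmetirom livers, against 1.11, 0.0846 and 0.0508 CPM in control livers, of which control 1 was the highest (log2 fold change of resmetirom against control 3.57 ± 1.04; edgeR adjusted p = 0.0761, with the same limit of the filter). Cyp2c70 had 465, 696 and 531 CPM in resmetirom livers, against 109, 326 and 231 CPM in control livers (log2 fold change 1.35 ± 0.41; edgeR adjusted p = 0.0843). Resmetirom livers did not overlap control livers for 4 members that were higher (Abcb4, Cyp39a1, Slc51b and Cyp2c70; 9.93% of all tested genes) and 5 that were lower (Abcc3, Slco1a1, Slco1a4, Scp2 and Atp8b1; 10.9%). The Abcc3 call was lost without scaling factors (edgeR adjusted p = 0.120), with only the 2 groups (0.224) and with the block added to these (0.655). Without control 1, Slc51b and Slco1b2 were called beside Abcc3 (3 of 32 members; 4.78% of all genes), with a log2 fold change of 5.75 for Slc51b (edgeR adjusted p = 0.0219). Without control 1 and resmetirom 2, 6 of 32 members were called (18.8%; Abcc3, Scp2, Slco1b2 and Nr5a2 lower, Abcb4 and Slc51b higher), where 7.46% of all genes were called.

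EE livers were compared with MASH livers to see which members differed under Eleutheroside E. No member was called (0 of 32; 0.00715% of all genes by edgeR). At an unadjusted p below 0.05 there were 2 members, where 7.49% of all genes passed. DESeq2 called 0 members, where it called 0.200% of all genes, and limma voom called 0. Cyp2c70 had 307, 607 and 254 CPM in EE livers, against 184, 177 and 143 CPM in MASH livers. Every EE liver was above every MASH liver, and the log2 fold change was 1.21 ± 0.40 (edgeR adjusted p = 0.595). Slco1a4, an organic anion uptake carrier, had 15.96, 6.04 and 10.04 CPM in EE livers, against 34.8, 14.3 and 29.2 CPM in MASH livers, where EE 1 lay above the lowest MASH liver (log2 fold change -1.29 ± 0.53; edgeR adjusted p = 0.630). Akr1d1, the reductase that sets the bent ring shape of bile acids, had 93.9, 77.8 and 80.6 CPM in EE livers, against 138, 103 and 109 CPM in MASH livers (log2 fold change -0.47 ± 0.24; edgeR adjusted p = 0.697). Amacr, the racemase of the side chain, had 135, 152 and 169 CPM in EE livers, against 105, 125 and 112 CPM in MASH livers (log2 fold change 0.42 ± 0.21; edgeR adjusted p = 0.697). Abcb1a, a multidrug exporter, was low in all livers, with 0.975, 0.926 and 2.65 CPM in EE livers and 3.12, 3.22 and 4.30 CPM in MASH livers (log2 fold change -1.23 ± 0.67; edgeR adjusted p = 0.731). The groups did not overlap for 6 members that were higher in EE livers (Cyp2c70, Amacr, Cyp27a1, Slc27a5, Hsd3b7 and Acox2; 16.7% of all tested genes) and 5 that were lower (Akr1d1, Abcb1a, Abcc4, Slco1b2 and Nr5a2; 15.5%).

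Deviations from the group means were weakly correlated between same-numbered EE and MASH livers (0.149 to 0.190), so the replicate number was also fitted as a block. Differently numbered EE and MASH livers ran from -0.0991 to -0.0495. A larger correlation joined differently numbered livers of other groups, at 0.477 for resmetirom 2 and control 1. The labels state no pairing, and the match was taken from these same data. The calls of the block fits are therefore not independent support for a difference. With the block and all 12 livers, 0 members were called (0.0357% of all genes). With only the EE and MASH livers and no block, Cyp27a1 was called, higher in EE livers (1 of 31 members; 5.63% of all genes). With only these livers and the block, 9 of 31 members were called (29.0%), where 20.7% of all genes were called. Of the 9, Amacr, Cyp27a1, Slc27a5 and Abcg8 were higher in EE livers and Akr1d1, Slco1a4, Slco1b2, Abcc3 and Abcb1a lower. In that fit the edgeR adjusted p was 0.000898 for Slco1a4 (log2 fold change -1.31), 0.00545 for Akr1d1 (-0.47), 0.0125 for Amacr (0.41) and 0.0163 for Abcb1a (-1.33). The hepatocyte markers summed to 112372, 119236 and 113623 CPM in EE livers, against 101753, 88978 and 86939 CPM in MASH livers. Alb was the largest part of each sum. Of the 8 markers, 6 were higher in EE livers without overlap (16.7% of all tested genes). Apob was lower without overlap (15.5%), at 2100, 1752 and 2007 CPM in EE livers against 3369, 3311 and 2856 CPM in MASH livers. The cholangiocyte markers summed to 60.2, 56.7 and 56.6 CPM in EE livers, against 118, 100.0 and 60.3 CPM in MASH livers, and the stellate markers to 172, 181 and 126 CPM, against 251, 224 and 248 CPM. The part of these marker lists in the members' levels was not tested. Leaving out control 1 and resmetirom 2 gave 0 called members, where 0.472% of all genes were called.

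MASH livers were compared with control livers to see what the model did to the members. No member was called (0 of 32; 0.0143% of all genes by edgeR), and at an unadjusted p below 0.05 there were 2, where 9.23% of all genes passed. DESeq2 called 0, where it called 0.622% of all genes, and limma voom called 0. Abcb4 had 265, 288 and 301 CPM in MASH livers, against 167, 225 and 196 CPM in control livers. The groups were apart, with a log2 fold change of 0.54 ± 0.20 (edgeR adjusted p = 0.519). Slco1a4 had 34.8, 14.3 and 29.2 CPM in MASH livers, against 88.5, 42.3 and 59.3 CPM in control livers, also without overlap (log2 fold change -1.28 ± 0.53; edgeR adjusted p = 0.521). Cyp8b1, the hydroxylase that sets the share of cholic acid, had a log2 fold change of 0.64 ± 0.42 (edgeR adjusted p = 0.669). Abcb11, the canalicular bile salt export pump, had 511, 370.1 and 398 CPM in MASH livers, against 542, 591 and 466 CPM in control livers. Its log2 fold change of -0.32 ± 0.24 (edgeR adjusted p = 0.714) turned to 0.08 without scaling factors. Abcg8, which with Abcg5 exports cholesterol into bile, had 89.4, 119.8 and 119 CPM in MASH livers, against 50.05, 83.4 and 95.1 CPM in control livers (log2 fold change 0.52 ± 0.40; edgeR adjusted p = 0.721). Abcb4 and Hsd3b7 were higher in MASH livers without overlap (2 members; 10.2% of all tested genes) and Slco1a4 lower (1 member; 9.41%). Without control 1 and resmetirom 2, 0 members were called, where 0.0634% of all genes were called.

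The smallest p-value between EE and control livers belonged to Slco1a4. It had 15.96, 6.04 and 10.04 CPM in EE livers, against 88.5, 42.3 and 59.3 CPM in control livers, a 5.92-fold lower level with no overlap (log2 fold change -2.56 ± 0.55; edgeR adjusted p = 0.0953). No member was called (0 of 32; 0.1% of all genes by edgeR). At an unadjusted p below 0.05 there were 5, where 16.1% of all genes passed. limma voom called 0, and DESeq2 called Slco1a4, where it called 4.21% of all genes. Slco1a4 was also called without resmetirom 2, a liver of neither group (edgeR adjusted p = 0.0441, log2 fold change -2.56), where 0.251% of all genes were called. Without control 1 and resmetirom 2 it was the 1 member called, where 4.15% of all genes were called. For Akr1d1, the log2 fold change of EE against control was -0.73 ± 0.24 (edgeR adjusted p = 0.182). For Amacr it was 0.63 ± 0.21 (edgeR adjusted p = 0.192). Hsd3b7 had 525, 545 and 521 CPM in EE livers, against 362, 395 and 365 CPM in control livers (log2 fold change 0.50 ± 0.23; edgeR adjusted p = 0.300). Abcg8 had 103, 153 and 168 CPM in EE livers, above all control livers (log2 fold change 0.89 ± 0.40; edgeR adjusted p = 0.304). Members without overlap numbered 7 higher in EE livers (Amacr, Hsd3b7, Abcg8, Acox2, Cyp27a1, Slc27a5 and Slco2b1; 13.7% of all tested genes) and 3 lower (Slco1a4, Akr1d1 and Atp8b1; 13.5%).

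The 2 drug groups were compared directly. Abcc3 had 199, 157 and 255 CPM in EE livers, against 31.8, 4.50 and 19.4 CPM in resmetirom livers, 10.9-fold higher in EE livers (log2 fold change 3.45 ± 0.58; edgeR adjusted p = 0.0416). It was 1 of 32 members called, where 0.307% of all genes were called. Leaving out any 1 of EE 1, EE 2, EE 3, MASH 1, MASH 2, MASH 3, control 2, control 3 or resmetirom 3 ended the call (edgeR adjusted p = 0.0546 to 0.168), as did no scaling factors, no filter, only the 2 groups, the block and both of these together (0.0611 to 0.248), and the log2 fold change stayed between 3.00 and 4.08 over the 12 livers left out in turn. Cyp39a1 followed, with a log2 fold change of -2.32 ± 0.53 (edgeR adjusted p = 0.101), and then Slc51b, with 0, 0.327 and 0.115 CPM in EE livers, against 2.12, 7.57 and 2.56 CPM in resmetirom livers (log2 fold change -4.73 ± 1.11; edgeR adjusted p = 0.109). Without control 1 both were called beside Abcc3 (3 of 32 members; 0.965% of all genes), with an edgeR adjusted p of 0.0339 for Cyp39a1 and 0.0322 for Slc51b, which the filter kept only through the resmetirom livers (log2 fold changes -2.31 and -4.72). With only the 2 groups and the block, Cyp39a1 was the 1 member called, lower in EE livers (edgeR adjusted p = 0.0471), where 0.0773% of all genes were called. Scp2 had 3254, 3174 and 3004 CPM in EE livers, above all resmetirom livers (log2 fold change 0.83 ± 0.24; edgeR adjusted p = 0.193). Slco1b2 had 605, 521 and 523 CPM in EE livers, again above all resmetirom livers (log2 fold change 1.11 ± 0.39; edgeR adjusted p = 0.285). The groups did not overlap for 9 members higher in EE livers (Abcc3, Scp2, Slco1b2, Slco1a1, Cyp8b1, Amacr, Slc27a5, Slco2b1 and Acox2; 8.70% of all tested genes) and 3 lower (Cyp39a1, Slc51b and Abcb4; 9.09%). Without control 1 and resmetirom 2, 5 of 32 members were called (15.6%; Abcc3 and Scp2 higher in EE livers, Cyp39a1, Slc51b and Abcc4 lower), where 2.94% of all genes were called. These comparisons share their MASH, control and drug livers, so they are not independent of each other.

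**Figure D3:**
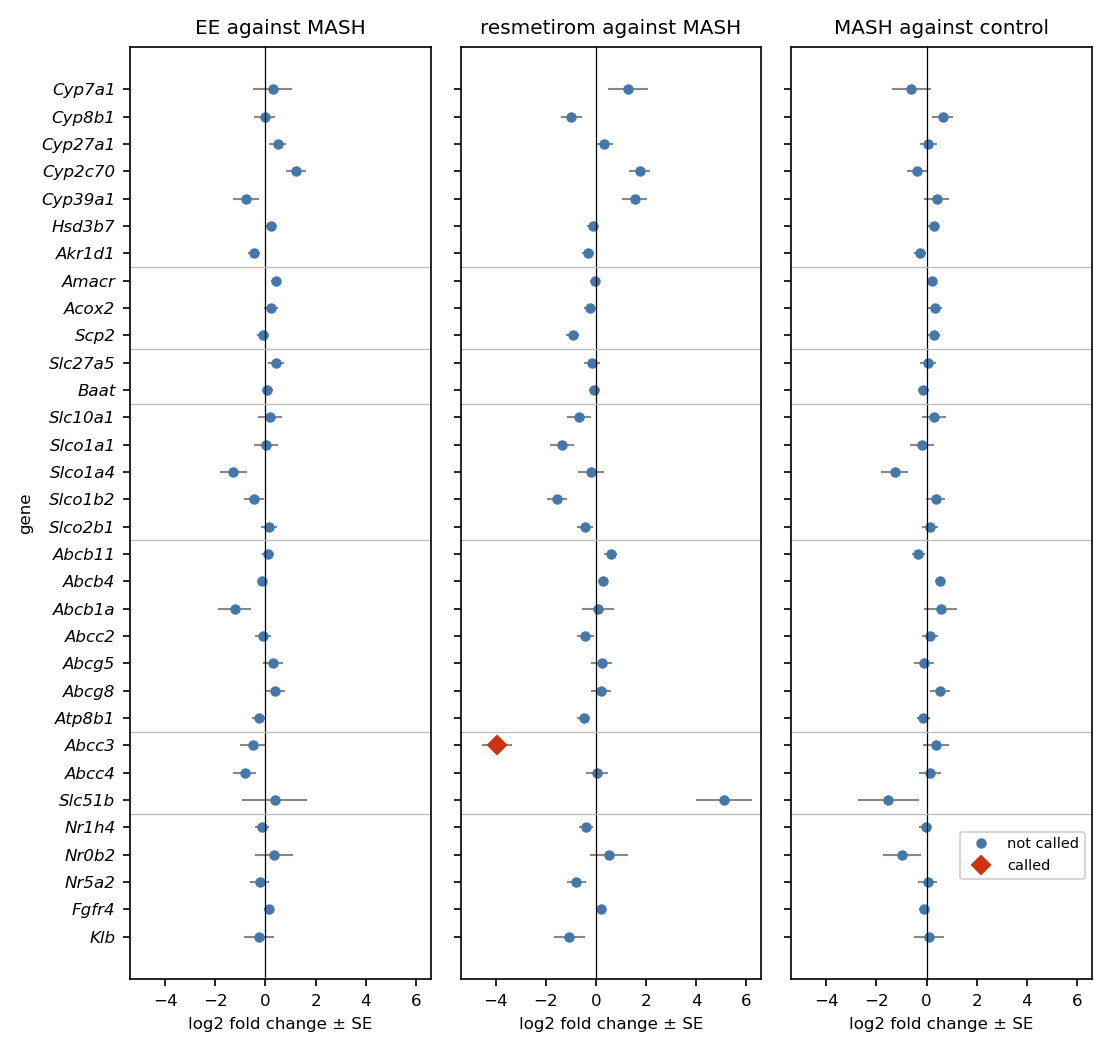
Log2 fold change (points) with its SE (bars) of the 32 tested members for EE against MASH, resmetirom against MASH and MASH against control, in rows by role. Abcc3 in resmetirom against MASH is the 1 member past the threshold in these 3 panels, at -3.95.

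By role, neither the entry enzymes nor Cyp8b1 passed the threshold in the fit of all livers. Cyp7a1 had 25.9, 82.9 and 74.0 CPM in EE livers, 132, 56.9 and 177 CPM in resmetirom livers, 13.7, 77.0 and 59.7 CPM in MASH livers and 11.2, 100.2 and 117 CPM in control livers. Each group held a liver well below its other 2, and all 4 groups overlapped. Against MASH, Cyp7a1 had a log2 fold change of 0.28 ± 0.78 in EE livers (edgeR adjusted p = 0.955; -0.01 without scaling factors, -0.16 without MASH 1 and -0.000617 without EE 2) and of 1.28 ± 0.79 in resmetirom livers (edgeR adjusted p = 0.468). MASH against control gave -0.61 ± 0.78 (edgeR adjusted p = 0.832). Cyp8b1 had 399.5, 330.1 and 490.2 CPM in EE livers, 109.5, 251 and 271 CPM in resmetirom livers, 368, 317 and 565 CPM in MASH livers and 129, 322 and 351 CPM in control livers. The resmetirom livers were below all MASH livers (log2 fold change -0.99 ± 0.42; edgeR adjusted p = 0.297) and EE livers overlapped them (-0.04 ± 0.41; edgeR adjusted p = 0.989; 0.25 without MASH 3 and 0.10 without EE 2). Cyp27a1 had 543, 441 and 510.0 CPM in EE livers, 263, 434 and 632 CPM in resmetirom livers, 330.4, 359 and 372 CPM in MASH livers and 187, 407 and 412 CPM in control livers. After TMM scaling, EE livers were above all MASH and all control livers, while resmetirom livers overlapped every other group. Before scaling, EE 2 held 8108 of 18977717 counts. That was a smaller share than in MASH 3 (9519 of 21033066) and control 3 (8118 of 17302701). Of the other synthesis genes, Acox2, the peroxisomal oxidase of the side chain, had 189, 206 and 191 CPM in EE livers, 117, 157 and 157 CPM in resmetirom livers, 170.4, 156 and 176 CPM in MASH livers and 74.7, 155 and 167 CPM in control livers.

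The Cyp7a1 values were read beside those of Nr0b2, the corepressor SHP that acts on Cyp7a1, a pair looked at after the values were seen. Nr0b2 had 44.6, 9.80 and 13.9 CPM in EE livers, 5.70, 53.1 and 20.1 CPM in resmetirom livers, 32.9, 7.78 and 14.02 CPM in MASH livers and 52.2, 28.2 and 27.9 CPM in control livers. In each of the 4 groups the liver with the lowest Cyp7a1 had the highest Nr0b2: EE 1, resmetirom 2, MASH 1 and control 1. Without scaling factors this held in 3 of the 4 groups, since the Nr0b2 level of control 1 was then the lowest of the controls. Dbp, an output gene of the circadian clock, had its group's lowest level in the same liver in the EE group, at 43.8 CPM in EE 1 against 119 and 123 CPM, and in the MASH group, at 11.5 CPM in MASH 1 against 83.2 and 90.2 CPM. In resmetirom 2 it was 55.4 CPM against 24.2 and 111 CPM, and in control 1 89.5 CPM against 93.9 and 89.0 CPM. Dbp is 1 of 13 listed clock genes, and others differed from it. Control 1 was the lowest control for Nr1d2, Tef, Hlf, Per1, Per2, Per3 and Ciart. It was the highest control for Cry1, Bmal1 and Npas2, and lay between for Nr1d1, Dbp and Clock. Resmetirom 2 was the lowest of its group for Nr1d2 and Clock and lay between for the rest. The labels give no hour of collection, and the part of the hour in these values was not tested. With 3 livers a group the order was not tested.

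**Figure D4:**
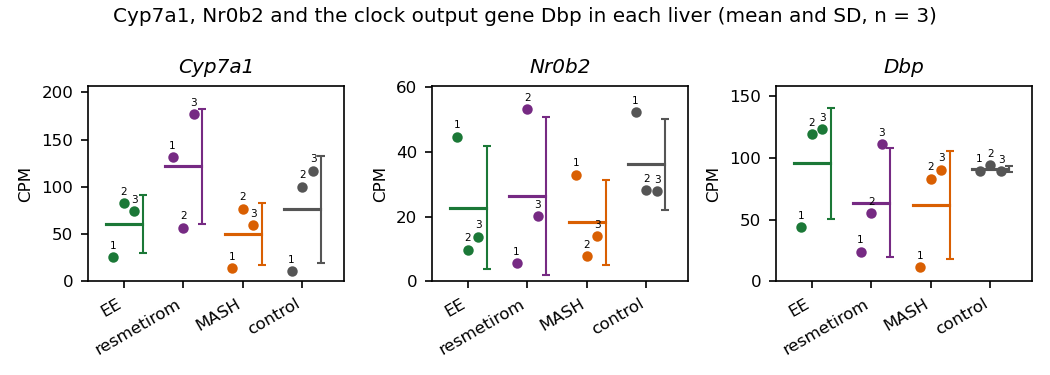
CPM of Cyp7a1, Nr0b2 and Dbp in each liver, by group. The livers EE 1, resmetirom 2, MASH 1 and control 1 hold their group's lowest Cyp7a1 and highest Nr0b2, except that the Nr0b2 level of control 1 is the lowest of the controls without scaling factors.

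Neither conjugation gene passed the threshold in the fit of all livers. Slc27a5 had 998, 954 and 1073 CPM in EE livers, 421, 700.5 and 907 CPM in resmetirom livers, 747, 685 and 839 CPM in MASH livers and 458, 874 and 844 CPM in control livers. After TMM scaling, the EE livers were the 3 highest of the study. Before scaling they were not. MASH 3 then held 21496 of 21033066 counts, a larger share than EE 2 with 17525 of 18977717 counts. Baat, which joins the activated bile acid to its amino acid, had 222, 182 and 205 CPM in EE livers, 132, 219.5 and 200.4 CPM in resmetirom livers, 211, 193 and 175 CPM in MASH livers and 174, 224 and 237 CPM in control livers. All 4 groups overlapped for Baat.

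The 5 uptake carriers all had a negative log2 fold change of resmetirom against MASH, with a median of -0.67, and none passed the threshold in the fit of all livers. Slc10a1 had 574, 524 and 626 CPM in EE livers, 119, 282 and 547 CPM in resmetirom livers, 491, 528 and 491 CPM in MASH livers and 180.3, 497 and 538 CPM in control livers. After TMM scaling, resmetirom 3 was above all MASH livers and resmetirom 1 was the lowest of the study. Slco1a1, a carrier of organic anions and steroid conjugates, had 276, 266 and 249 CPM in EE livers, 39.0, 138 and 127 CPM in resmetirom livers, 276, 393 and 108 CPM in MASH livers and 228, 342 and 315 CPM in control livers. The low MASH 3 value made the resmetirom and MASH ranges overlap, while the resmetirom livers were below all control livers. Slco2b1, a further organic anion carrier, had 175, 185 and 205 CPM in EE livers, 54.8, 157 and 165 CPM in resmetirom livers, 153, 162 and 198 CPM in MASH livers and 153, 155 and 155 CPM in control livers. After TMM scaling, resmetirom 1 was the lowest liver of the study for Slc10a1, Slco1a1, Slco1b2 and Slco2b1. It also had the lowest pericentral sum, of which Cyp2e1 was the largest part. The order depends on the scaling for Slc10a1 and Slco1b2. Before scaling, control 1 had fewer counts than resmetirom 1 for Slc10a1 (1794 against 3098) and Slco1b2 (2687 against 4516). Their library totals were 19600116 and 18409190 counts. In EE livers, 3 of the 5 carriers had a positive log2 fold change against MASH, with a median of 0.02. Slco1a4 had 25.2, 7.42 and 34.9 CPM in resmetirom livers, all below the control livers. Slco1a1, Slco1a4 and Slco1b2 are related genes on chromosome 6, and the labels do not state how reads shared between relatives were divided.

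Among the canalicular genes, Abcb11 had 553, 369 and 434 CPM in EE livers, 520.3, 775 and 616 CPM in resmetirom livers, 511, 370.1 and 398 CPM in MASH livers and 542, 591 and 466 CPM in control livers. The resmetirom livers were above all MASH livers. Abcb4 was ordered resmetirom, MASH, EE and control by group mean, at 346 ± 33.2, 285 ± 18.3, 258 ± 40.7 and 196 ± 29.2 CPM (SD, n = 3 each), and the MASH and EE ranges overlapped, as did those of EE and control. Abcc2, the canalicular exporter of divalent and glucuronidated conjugates, lay between 178 CPM in resmetirom 2 and 463 CPM in EE 3 and overlapped in all groups. Abcg5 lay between 41.8 CPM in resmetirom 1 and 132 CPM in resmetirom 3, and Abcg8 between 50.05 CPM in control 1 and 218 CPM in resmetirom 3. Both subunits were highest in the same liver. Atp8b1, an aminophospholipid flippase of the canalicular membrane, lay between 13.6 CPM in resmetirom 2 and 32.6 CPM in MASH 1.

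Of the other basolateral exporters, Abcc4 had 1.33, 1.09 and 1.62 CPM in EE livers, 3.51, 0.899 and 2.77 CPM in resmetirom livers, 2.37, 2.13 and 2.66 CPM in MASH livers and 1.21, 2.75 and 2.49 CPM in control livers. EE livers were below all MASH livers. The resmetirom livers, all low in Abcc3, held both the highest and the lowest Abcc4 value of the study.

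Among the regulators, Nr1h4 had 78.3, 87.3 and 57.6 CPM in EE livers, 39.3, 60.4 and 86.9 CPM in resmetirom livers, 75.3, 89.8 and 81.1 CPM in MASH livers and 93.1, 84.6 and 76.1 CPM in control livers. All groups overlapped. Nr5a2, the receptor LRH-1 that activates Cyp7a1 and Cyp8b1, had 36.8, 39.4 and 37.1 CPM in EE livers, 24.0, 14.8 and 37.5 CPM in resmetirom livers, 50.7, 42.1 and 39.9 CPM in MASH livers and 19.5, 54.3 and 54.5 CPM in control livers. EE and resmetirom livers were each below all MASH livers. Klb had 25.3, 22.4 and 19.4 CPM in EE livers, 10.98, 3.45 and 24.2 CPM in resmetirom livers, 30.7, 21.8 and 28.4 CPM in MASH livers and 6.93, 30.3 and 37.2 CPM in control livers. Its receptor partner Fgfr4 lay between 23.8 CPM in MASH 2 and 39.8 CPM in control 1, with overlap of all groups. Control 1, which held the high mitochondrial share, was the lowest control for Nr5a2, Klb, Slc10a1 and Cyp27a1.

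A further 60 genes were listed, of which 55 were tested. They comprise other synthesis, transport and regulator genes and listed targets of FXR, so not all of them act on bile acids. None was called in EE against MASH, EE against control, EE against resmetirom, MASH against control or resmetirom against MASH. In resmetirom against MASH their median log2 fold change was -0.10, with 24 positive and 31 negative. The smallest p-values there belonged to Akr1c14, a hydroxysteroid dehydrogenase, at 64.0, 123 and 101 CPM in resmetirom livers against 223, 223 and 204 CPM in MASH livers (log2 fold change -1.18 ± 0.24; edgeR adjusted p = 0.0507). The VLDL receptor Vldlr followed at 0.308, 0 and 0.410 CPM in resmetirom livers against 3.93, 1.55 and 5.94 CPM in MASH livers (log2 fold change -3.85 ± 0.81; edgeR adjusted p = 0.0567). Both genes had all resmetirom livers below all MASH livers. Against control livers, 5 of the 55 were called in resmetirom livers, where 3.16% of all tested genes were called. Akr1c14 (log2 fold change -1.55 ± 0.24; edgeR adjusted p = 0.0115), Rdx, which anchors canalicular transporters to actin (-0.78 ± 0.19; edgeR adjusted p = 0.0443), and Vldlr (-3.27 ± 0.81; edgeR adjusted p = 0.0498) were lower. Scarb1, the HDL receptor (0.98 ± 0.21; edgeR adjusted p = 0.0324), and the hepatokine Fgf21 (3.80 ± 0.83; edgeR adjusted p = 0.0337) were higher. Akr1c14 was listed under synthesis and Rdx under transport, while Vldlr, Scarb1 and Fgf21 were listed as FXR targets. The MASH livers too were above all control livers for Scarb1 and Fgf21, and below them for Akr1c14 and Rdx. Fgf21 had 44.3, 6.07 and 15.3 CPM in resmetirom livers, 6.15, 3.55 and 6.91 CPM in MASH livers and 1.51, 1.56 and 1.62 CPM in control livers. In EE against MASH the smallest p-values belonged to Vldlr, at 1.13, 0.327 and 0.519 CPM in EE livers (log2 fold change -2.51 ± 0.73; edgeR adjusted p = 0.595), and Cyp7b1, the oxysterol hydroxylase of the alternative route. Cyp7b1 had 303, 609.5 and 349 CPM in EE livers, against 107, 199 and 96.8 CPM in MASH livers. All EE livers were above all MASH livers (log2 fold change 1.65 ± 0.58; edgeR adjusted p = 0.604).

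The other comparisons' smallest p-values in that list were as follows. In EE against control they belonged to Tmem30a, the partner subunit of Atp8b1 (log2 fold change -0.76 ± 0.19; edgeR adjusted p = 0.119), and Scarb1 (0.73 ± 0.21; edgeR adjusted p = 0.150). In EE against resmetirom they belonged to Abcg2, a canalicular exporter (1.17 ± 0.25; edgeR adjusted p = 0.0843), and Akr1c14 (0.87 ± 0.24; edgeR adjusted p = 0.160). In MASH against control they belonged to Fetub (-1.51 ± 0.56; edgeR adjusted p = 0.518) and Egr1 (-2.13 ± 0.79; edgeR adjusted p = 0.518), both of which had their highest control value in control 1, at 1761 and 47.6 CPM. The receptor CAR (Nr1i3), whose values were picked out after they were seen, had 97.7, 103 and 139 CPM in EE livers, 17.3, 29.7 and 65.4 CPM in resmetirom livers, 94.2, 93.3 and 118 CPM in MASH livers and 190.3, 74.2 and 113 CPM in control livers. Its resmetirom livers were the 3 lowest of the study (log2 fold change against MASH -1.44 ± 0.44; edgeR adjusted p = 0.159).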

How the data were processed

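Poly(A) RNA of 12 mouse livers was read from stranded libraries, per the labels' protocols. Reads were trimmed with fastp and the build was GRCm39, per the submitters' processing notes. The aligner, counter, annotation and strand setting were not given in the sources used here. Per gene, the authors deposited expected counts with Ensembl identifiers, not scaled (28036 genes; 91.5% to 93.3% of a library's values whole), which were rounded to whole numbers here. Totals were 17297864 to 21793311 counts, and precision at low levels is limited by counting error.

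Symbols, for 22603 identifiers, and exon lengths came from GENCODE annotation of GRCm38, and start-site windows from RefSeq (GRCm38.p6). These coordinates were not joined to the authors' data. CPM are counts per 1000000 of the effective library size, after TMM scaling.

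All 12 livers entered 1 edgeR 4.0.16 fit in R 4.3.3 (filterByExpr, robust quasi-likelihood F test, 8 residual degrees of freedom, biological coefficient of variation 0.334). Benjamini-Hochberg adjustment ran over 13988 genes at a threshold of 0.05. The SE is the log2 fold change divided by the square root of F. The procedure was tested on simulated counts. Alternatives included DESeq2 1.42.0 and limma 3.58.1 (voom), other scalings and filters, fewer livers and a replicate block. The fit with a block and only 2 groups was added after seeing the data.

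Replicate numbers come from the titles. Same-numbered EE and MASH livers had correlated deviations from their group means (0.149 to 0.190), all over the 0.1 asked for. The main fit had no block, and the replicate block was fitted only as an alternative.

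The members, the gene lists and the marker lists were chosen with earlier results of these data known. Statistics are given for called members, for the 5 with the smallest p in each of 6 comparisons, and for Cyp7a1 and Cyp8b1 in the MASH comparisons. From the further gene list, called genes and the 2 with the smallest p per comparison are named.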

Additional observations from a re-analysis of the deposited data

How the results depend on the processing

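Over the 22 alternatives, no member was called in MASH against control. In EE against MASH the count was 0, and it was 1 with only the 2 groups and 9 with only the 2 groups and the replicate block; leaving out 1 liver gave 0 throughout. In resmetirom against MASH it was 1, against 0 without scaling factors, 3 without the filter, 5 with DESeq2, 0 with only the 2 groups, with or without the block, 5 without control 1 and resmetirom 2, and 0 to 5 with 1 liver left out. In EE against control it was 0, against 1 with DESeq2, with the replicate block and without control 1 and resmetirom 2, and 0 to 1 with 1 liver left out (1 without resmetirom 2). In resmetirom against control it was 1, against 0 without scaling factors, 3 without the filter, 9 with DESeq2, 3 with limma voom, 0 with only the 2 groups, with or without the block, 2 with the block, 6 without control 1 and resmetirom 2, and 1 to 3 with 1 liver left out (3 without control 1). In EE against resmetirom it was 1, against 0 without scaling factors, without the filter, with only the 2 groups and with the block, 4 with DESeq2, 1 with only the 2 groups and the block (Cyp39a1 in place of Abcc3), 5 without control 1 and resmetirom 2, and 0 to 3 with 1 liver left out (3 without control 1). The cause of these differences was not tested. The counts are of 32 members with DESeq2 and limma voom and of 33 without the filter. They cannot be read apart from the counts of all genes called in the same fits, which are given below. Same-numbered livers passed the correlation rule only for EE and MASH, and the labels state no pairing for any groups. The lowest correlation was -0.341, for resmetirom and control.

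With only the 2 groups and the block, the Abcc3 call of resmetirom against MASH was lost (edgeR adjusted p = 0.0504, log2 fold change -4.28). Scaling by relative log expression and removing mitochondrial genes changed no call. Signs turned for Abcb11 in MASH against control (0.0846 without scaling factors) and for Cyp7a1 in EE against MASH (-0.0107 without scaling factors; -0.16 to 0.73 with 1 liver left out). For Cyp8b1 in EE against MASH, values ran from -0.20 to 0.25 with 1 liver left out. Without scaling factors the median of all genes moved by 0.38 in MASH against control, by -0.30 in EE against MASH, by -0.18 in resmetirom against MASH and by 0.20 in resmetirom against control, on the log2 scale.

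Over all genes, the counts called were 93 in resmetirom against MASH (657 with DESeq2, 243 without the filter, 467 without control 1 and resmetirom 2, 38 without scaling factors, 0 with only the 2 groups), 442 in resmetirom against control (1545, 537, 1059, 37 and 5), 43 in EE against resmetirom (410, 176, 417, 12 and 3), 14 in EE against control (589, 117, 589, 0 and 0), 2 in MASH against control (87, 34, 9, 1 and 0) and 1 in EE against MASH (28, 8, 67, 1 and 746). In the same order of comparisons, limma voom called 100, 354, 30, 9, 1 and 0 genes and the replicate block 112, 327, 19, 17, 2 and 5. With 1 liver left out the counts ran from 1 to 431, 127 to 684, 7 to 138, 0 to 69, 0 to 6 and 0 to 1. The genes tested were 13988 in the main fit and with DESeq2, and 14192 without control 1 and resmetirom 2. Levels near 1 CPM, as for Slc51b, Abcb1a and Abcc4, rest on few counts.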
